A study of Mus musculus with 27 samples.

Results

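A set of 10 genes that mark cortical interneurons were followed across the RNA-seq libraries of sorted motor cortex nuclei from C9-BACexp and C57BL/6J mice. They were taken by symbol from the gene-level table, where they are 10 of 39338 rows. The members are Gad1, Gad2 and Slc32a1, which make and package GABA, Lhx6, Pvalb and Sst, Adarb2 and Vip, and Npy and Reln. All 10 had enough counts to be tested, as did 21768 rows in all. C9-BACexp mice carry the human C9ORF72 gene with its repeat expansion on a bacterial artificial chromosome inserted in a C57BL/6J background, and the C57BL/6J mice were littermates without it. Nuclei were marked with EGFP-KASH, a green fluorescent protein held at the nuclear envelope, and sorted on it. The vectors were PHP.eB adeno-associated viruses injected into the motor cortex with the broadly active CAG promoter, so neither the promoter nor the sort picks interneurons. The groups were C9-BACexp with crRNA-13 (n = 6), NTG (n = 6) and EGFP-KASH only (n = 3), and C57BL/6J with crRNA-13 (n = 3), NTG (n = 5) and EGFP-KASH only (n = 4). The guide crRNA-13 directs RfxCas13d-N2V8, a Cas13 nuclease that cuts RNA, to the human C9ORF72 transcript, and NTG is a guide with no target. All groups also received EGFP-KASH, and the EGFP-KASH only mice received no nuclease. The effector given with NTG is written RfxCas13d in the labels and RfxCas13d-N2V8 in the methods. Mice given crRNA-13 or NTG were injected at 6 weeks of age and their nuclei isolated 2 months later, and these details were not given for EGFP-KASH only mice.

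Cortical interneurons are the local inhibitory neurons of the cortex. They are born outside it, in the medial and caudal ganglionic eminences (MGE and CGE) of the embryonic forebrain, and keep a record of that origin in the transcription factors and peptides they express. MGE-derived cells express the transcription factor Lhx6 and divide mainly into cells with parvalbumin (Pvalb) and cells with somatostatin (Sst). CGE-derived cells include those with vasoactive intestinal peptide (Vip), and Adarb2 marks this lineage. Npy and Reln are shared by several classes, among them neurogliaform cells. Pvalb, Sst and Vip cells together make up most of the inhibitory neurons of the cortex, and these classes use Gad1, Gad2 and Slc32a1.

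The 27 libraries held 21508829 to 36777972 counts, with a median of 29001126, and the smallest count of a member in any library was 24, for Vip. Slc17a7, the glutamate transporter of excitatory cortical neurons, was at 140 to 293 CPM in every library. CPM stands for the count of a gene relative to the TMM-scaled total of its library, the usual unit for RNA-seq libraries of unequal depth. Counts of spliced and unspliced transcripts were added, so a long gene gathers more of them and the CPM of different genes are not compared here. Markers of neurons outside the cortex moved with some libraries. The summed level of the striatal projection neuron genes (14 of 15 tested) reached 8676 CPM in replicate 6 of the C9-BACexp mice with NTG. Pde10a alone reached 6819 CPM in that group, so the sum mostly follows 1 gene. Drd2, the D2 dopamine receptor of these cells, ran over the libraries from 0.593 to 174 CPM. Oligodendrocyte markers varied as well, with Mbp, a myelin protein, at 194 to 1704 CPM. In bulk nuclei, fewer cells of a type and less RNA in each cell cannot be told apart.

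No member was called different between groups in any of the 10 comparisons, which made 100 tests in edgeR's quasi-likelihood fit with 4 factors for variation not tied to the 6 groups. The lowest adjusted p was 0.151 in edgeR, for Adarb2 in C9-BACexp mice with crRNA-13 against NTG. At an unadjusted p under 0.05 there were 11 of the 100 tests, and 4 in edgeR without the factors, where again 0 were called. Without the factors few of all genes tested were called in edgeR either, 0.0276% between genotypes with NTG, 0.0184% each with crRNA-13 and EGFP-KASH only, in C9-BACexp mice 0.0138% and 0.00919% for crRNA-13 and NTG beside EGFP-KASH only, and 0% in the other 5 comparisons. DESeq2 with and without the factors and limma-trend with them also called 0 members in each comparison. In edgeR with the factors the standard errors of the log2 fold changes were 0.134 to 0.462. No 95% interval of that fit reached farther than 1.42 from 0 on the log2 scale. The factors were taken from the residuals of the same libraries, which lowers the spread left over. Standard errors were lower with the factors in 80 of the 100 tests, so these intervals may be too narrow. Without the factors intervals reached farther, as for Vip between crRNA-13 and EGFP-KASH only in C57BL/6J mice, from -2.23 to 0.38.

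**Figure D1:**
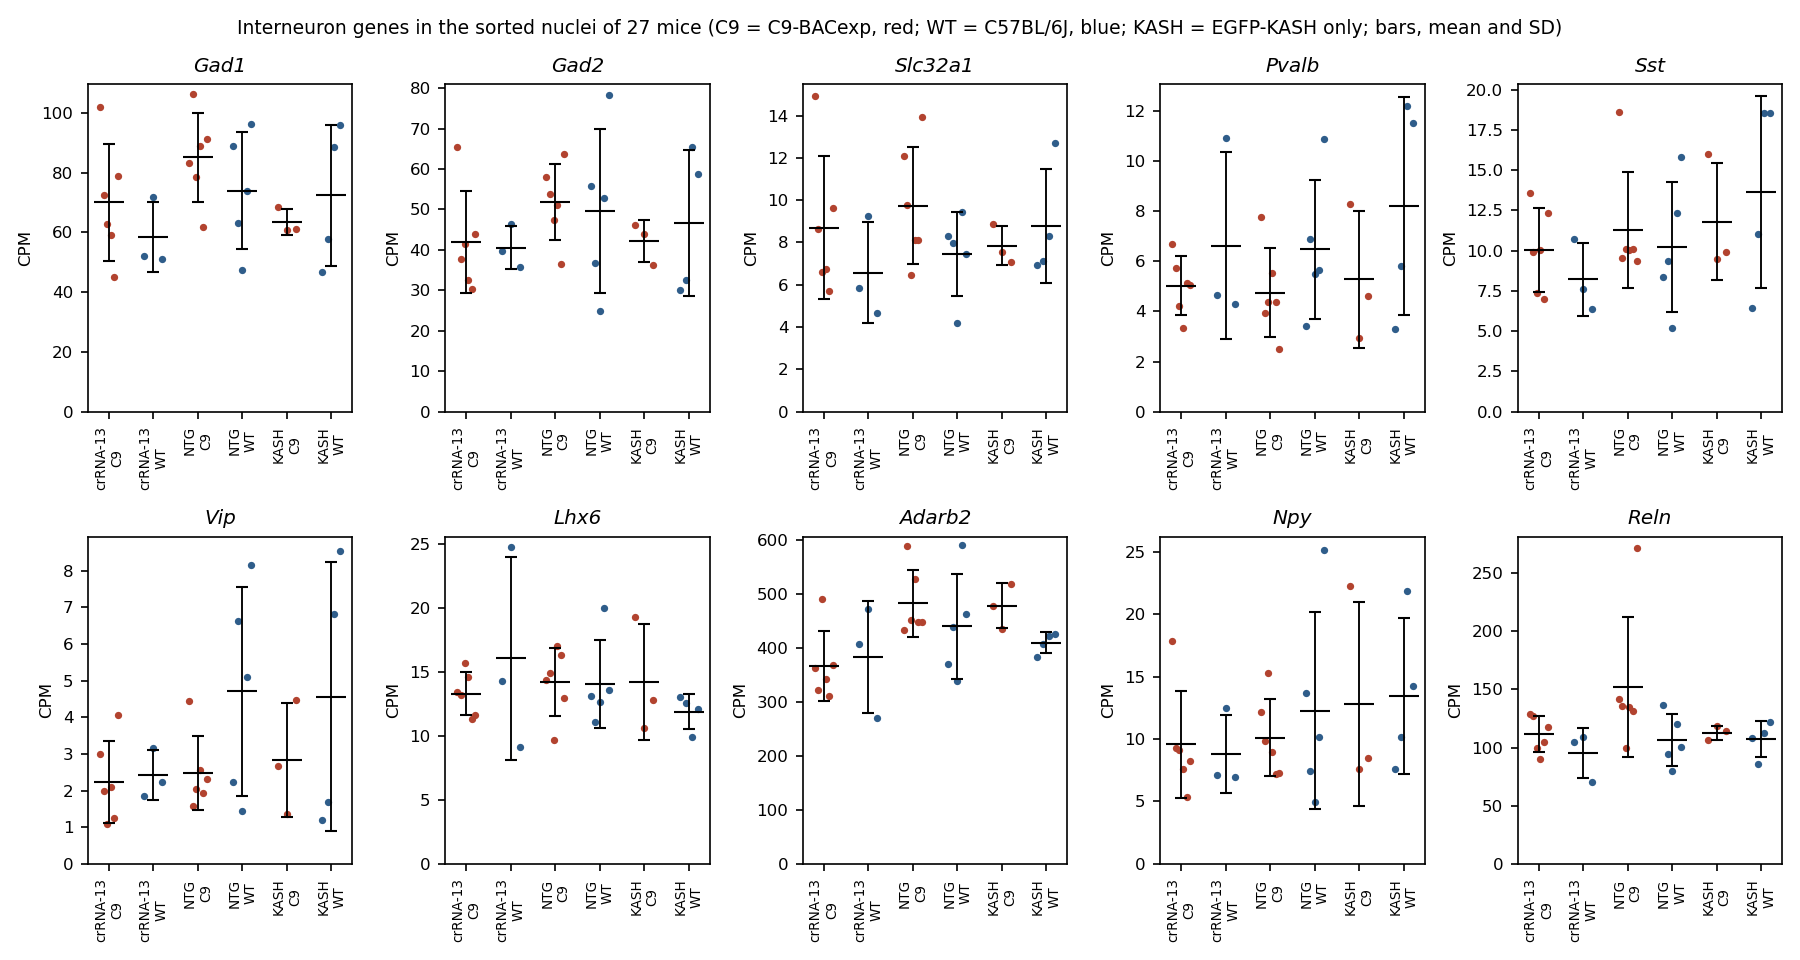
Levels of the 10 interneuron genes in CPM (y axis, linear, from 0) in each group (x axis), with 1 point for each of the 27 libraries and bars for the mean and SD. Within most groups the points of a gene spread widely, as for Vip, from 1.198 to 8.54 CPM in C57BL/6J mice with EGFP-KASH only.

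The 10 genes lie on 7 chromosomes of the GRCm39 build, with positions taken from GENCODE M39. Gad1 (chr2:70383416-70432372), Gad2 (chr2:22511862-22583886) and Slc32a1 (chr2:158452605-158464883) are on the plus strand of chromosome 2, and Lhx6 (chr2:35971964-35995601) is on its minus strand. Pvalb is at chr15:78075314-78091149 and Sst at chr16:23707321-23711733, both on the minus strand. On the plus strand, Vip is at chr10:5589186-5599956, Adarb2 at chr13:8252897-8818800 and Npy at chr6:49799026-49806489. Reln is at chr5:22089452-22549700 on the minus strand. Adarb2 and Reln are the long genes of the set, with spans of 565.9 and 460.2 kb, of which 2.32% and 5.16% is exonic. Sst spans 4.413 kb, of which 82.2% is exonic. Of the genes that the table also lists, Gad1os overlaps Gad1 and Gm14204 overlaps Slc32a1 on the opposite strand, and Mir3967 lies within Gad2. Whether the counting used the strand is not given in the sources used here, so reads of these pairs may not be told apart.

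Sst and Vip varied together over the libraries, as described further on, and the sequence before their start sites is shown for that reason. Both sequences are the 250 bases before the annotated start in RefSeq (GRCm38.p6), from chr16:23890845-23891094 on the minus strand for Sst and chr10:5638968-5639217 on the plus strand for Vip. Capitals mark TGACG on either strand, the core of the cyclic AMP response element, whose full form TGACGTCA is a binding site of the activity-dependent factor CREB.
Sst: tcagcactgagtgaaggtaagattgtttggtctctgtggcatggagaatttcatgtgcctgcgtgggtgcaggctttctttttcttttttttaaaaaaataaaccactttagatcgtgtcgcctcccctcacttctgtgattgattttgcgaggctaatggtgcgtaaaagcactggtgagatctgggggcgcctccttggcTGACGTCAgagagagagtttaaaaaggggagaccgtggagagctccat
Vip: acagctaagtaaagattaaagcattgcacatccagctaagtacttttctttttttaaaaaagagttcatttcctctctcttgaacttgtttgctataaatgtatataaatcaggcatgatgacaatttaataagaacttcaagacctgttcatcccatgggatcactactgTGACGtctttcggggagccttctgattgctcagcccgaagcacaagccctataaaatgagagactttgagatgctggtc
The full element began 48 bases before the start of Sst, and the core began 79 bases before that of Vip. In windows of 300 bases that reach 50 bases past the start, the 10 genes had 13 windows. The core was found in 3 of the 13 (those of Gad2, Sst and Vip) and in 20.8% of all 32851 windows. The full form was found in 1 of the 13, that of Sst, and in 1.79% of all windows. These matches describe the sequence and are not evidence of binding.

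Gad1 and Gad2 encode the 67- and 65-kDa forms of glutamate decarboxylase, the enzyme that makes GABA, and had lower means in C9-BACexp mice with crRNA-13 than with NTG, differences that did not pass after adjustment. In C9-BACexp mice the lowest, median and highest Gad1 level were 45.0, 67.6 and 102 CPM with crRNA-13 and 61.9, 86.1 and 106 CPM with NTG. With EGFP-KASH only, Gad1 was at 68.4, 60.6 and 61.1 CPM. The middle values with NTG were the highest, and the ranges with crRNA-13 and NTG overlapped over most of their length. Gad1 differed by -0.32 ± 0.13 (SE) on the log2 scale between crRNA-13 and NTG (edgeR, adjusted p = 0.236), and by -0.21 without replicate 6 of the crRNA-13 mice (adjusted p = 0.479). Between NTG and EGFP-KASH only it differed by 0.44 ± 0.17 (edgeR, adjusted p = 0.319). Gad2 was at 30.5, 39.6 and 65.4 CPM (lowest, median and highest) with crRNA-13 and at 36.6, 52.5 and 63.8 CPM with NTG in C9-BACexp mice. The highest Gad2 level of these 12 libraries was in a crRNA-13 library, replicate 1, and without it the difference of -0.34 ± 0.14 (edgeR, adjusted p = 0.204) became -0.48 (adjusted p = 0.0841), whereas without replicate 6 of the crRNA-13 mice it was -0.27 (adjusted p = 0.397). Among C57BL/6J mice Gad2 ranged from 35.7 to 46.4 CPM with crRNA-13, from 24.8 to 78.3 CPM with NTG and from 30.2 to 65.6 CPM with EGFP-KASH only. Gad1 in C57BL/6J mice averaged 58.3 ± 11.7 CPM with crRNA-13 (SD, n = 3), 73.9 ± 19.6 CPM with NTG (n = 5) and 72.3 ± 23.7 CPM with EGFP-KASH only (n = 4).

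Slc32a1, the vesicular transporter that loads GABA into synaptic vesicles, ran from 4.17 to 14.9 CPM over the libraries. Its group means were 8.70 ± 3.37, 9.74 ± 2.78 and 7.84 ± 0.921 CPM (SD) in C9-BACexp mice with crRNA-13, NTG and EGFP-KASH only. The means of C57BL/6J mice were 6.58 ± 2.38 CPM with crRNA-13, 7.47 ± 1.98 CPM with NTG and 8.77 ± 2.70 CPM with EGFP-KASH only. The largest of its differences in size was -0.39 ± 0.27 on the log2 scale, between crRNA-13 and EGFP-KASH only in C57BL/6J mice (edgeR, adjusted p = 0.645). All of these means lay within 1.48-fold of each other.

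Lhx6, the transcription factor that specifies MGE-derived interneurons and is kept in the adult, was among the steadier members, at 9.16 to 24.7 CPM. Its group means were 13.3 ± 1.68 CPM with crRNA-13, 14.2 ± 2.63 CPM with NTG and 14.2 ± 4.51 CPM with EGFP-KASH only in C9-BACexp mice (SD). The means of C57BL/6J mice were 16.1 ± 7.94, 14.1 ± 3.43 and 11.9 ± 1.38 CPM with the same treatments. With NTG the genotypes differed by 0.0094 on the log2 scale, with a 95% interval of -0.38 to 0.40 (edgeR, adjusted p = 0.991). Pvalb, the calcium-binding protein of fast-spiking basket and chandelier cells, ran from 2.51 to 12.2 CPM. In C9-BACexp against C57BL/6J mice it averaged 5.03 ± 1.17 against 6.62 ± 3.72 CPM with crRNA-13 and 4.75 ± 1.77 against 6.48 ± 2.77 CPM with NTG. With EGFP-KASH only Pvalb averaged 5.28 ± 2.72 CPM in C9-BACexp mice against 8.21 ± 4.35 CPM in C57BL/6J mice. The mean was lower in C9-BACexp mice with each treatment, by 0.37 to 0.62 on the log2 scale, and within each treatment the ranges overlapped (edgeR, adjusted p = 0.608 with crRNA-13, 0.506 with NTG and 0.393 with EGFP-KASH only).

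Sst, the peptide of Martinotti and related dendrite-targeting cells, had a lower mean in C57BL/6J mice with crRNA-13 than with EGFP-KASH only, a difference that did not pass after adjustment. In C57BL/6J mice Sst was at 10.7, 7.60 and 6.35 CPM with crRNA-13, at 8.36, 9.36, 5.201, 12.3 and 15.8 CPM with NTG and at 6.42, 11.1, 18.5 and 18.6 CPM with EGFP-KASH only. The EGFP-KASH only libraries held both a value close to that of the lowest crRNA-13 library and the highest values of the genotype. The difference between crRNA-13 and EGFP-KASH only was -0.57 ± 0.21 on the log2 scale (edgeR, adjusted p = 0.296). This comparison is the exception to the absence of calls, since without replicate 2 of the EGFP-KASH only mice it was -0.89 with an adjusted p of 0.0407 in edgeR. Between NTG and EGFP-KASH only Sst differed by -0.39 ± 0.18 (edgeR, adjusted p = 0.619). That value was -0.70 without replicate 2 of the EGFP-KASH only mice, -0.21 without their replicate 4 or 5, and -0.18 without replicate 3 of the NTG mice. In C9-BACexp mice Sst had a lowest, median and highest value of 6.97, 9.98 and 13.6 CPM with crRNA-13 and of 9.39, 10.1 and 18.6 CPM with NTG. With EGFP-KASH only it was at 16.0, 9.47 and 9.92 CPM there. The highest NTG value belonged to replicate 1, and the other NTG libraries lay between 9.39 and 10.1 CPM.

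Adarb2, a member of the adenosine deaminase family without known editing activity that marks CGE-derived interneurons, gave the lowest adjusted p of the set. In C9-BACexp mice the lowest, median and highest Adarb2 level were 311, 353 and 492 CPM with crRNA-13 and 434, 451 and 590 CPM with NTG. With EGFP-KASH only they were 479, 436.5 and 519.9 CPM. Of the 6 crRNA-13 libraries, 5 lay below the lowest NTG library, and replicate 3 lay among them. The difference from NTG was -0.40 ± 0.14 on the log2 scale (edgeR, adjusted p = 0.151), and without replicate 3 of the crRNA-13 mice it was -0.51 (adjusted p = 0.0521). Against EGFP-KASH only the difference was -0.38 ± 0.17 (edgeR, adjusted p = 0.271). These comparisons share the crRNA-13 libraries. The C57BL/6J mice had Adarb2 at 407, 473 and 271 CPM with crRNA-13 and 371, 439, 339, 591 and 463 CPM with NTG. With EGFP-KASH only it was at 384.1, 408, 422 and 427.3 CPM in C57BL/6J mice. With EGFP-KASH only, the C9-BACexp libraries (436.5 to 519.9 CPM) all lay above the C57BL/6J libraries (384.1 to 427.3 CPM), the one case in the set of groups that did not overlap. In that comparison 6.13% of all genes tested had groups that did not overlap, and Adarb2 differed by 0.22 ± 0.19 (edgeR, adjusted p = 0.624).

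Vip, the peptide of interneurons that chiefly inhibit other interneurons, was the most variable member and had a lower mean in C9-BACexp than in C57BL/6J mice with NTG, which did not pass after adjustment. With NTG the lowest, median and highest Vip level were 1.59, 2.18 and 4.43 CPM in C9-BACexp mice, against 2.24, 6.64, 1.45, 5.09 and 8.15 CPM in the 5 C57BL/6J mice. The C57BL/6J libraries split, with 3 above every C9-BACexp library, 1 within their range and 1 below it. The difference was -0.73 ± 0.29 on the log2 scale, with a 95% interval of -1.35 to -0.11 (edgeR, adjusted p = 0.212). It was -0.48 without replicate 5 of the C57BL/6J mice (adjusted p = 0.492) and -1.08 without their replicate 3 (adjusted p = 0.0616). Without the factors the 95% interval was -1.93 to 0.09, and the unadjusted p of Vip was over 0.05. With crRNA-13 Vip ranged from 1.08 to 4.05 CPM in C9-BACexp mice and from 1.86 to 3.17 CPM in C57BL/6J mice. With EGFP-KASH only it was at 2.68, 1.37 and 4.46 CPM in C9-BACexp mice, against 1.198, 1.69, 6.81 and 8.54 CPM in C57BL/6J mice. Levels above 5 CPM occurred in 5 libraries, all of C57BL/6J mice with NTG or EGFP-KASH only.

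Reln encodes reelin, a secreted glycoprotein that in the adult cortex comes mainly from interneurons, and its mean was higher in C9-BACexp than in C57BL/6J mice with NTG, which did not pass after adjustment. With NTG the lowest, median and highest Reln level were 99.6, 135 and 271 CPM in C9-BACexp mice, against 137, 94.6, 80.3, 119.9 and 100.3 CPM in the C57BL/6J mice. Replicate 6 of the C9-BACexp mice stood far above the other 5, which ended at 142 CPM and overlapped the C57BL/6J mice. The difference was 0.51 ± 0.20 on the log2 scale (edgeR, adjusted p = 0.201), and without replicate 6 it was 0.28 (adjusted p = 0.356). In C9-BACexp mice with crRNA-13 Reln ran from 90.2 to 129 CPM, with a median of 111.5 CPM, and differed from NTG by -0.45 ± 0.19 (edgeR, adjusted p = 0.233), or by -0.21 without replicate 6 of the NTG mice (adjusted p = 0.483). With EGFP-KASH only it was at 106, 118 and 114 CPM in C9-BACexp mice, against 108, 86.1, 113 and 122 CPM in C57BL/6J mice. Cajal-Retzius cells secrete reelin in the embryo, and the summed level of their 2 tested markers, Trp73 and Ebf3, was 0.291 to 5.06 CPM over the libraries. Their part in the Reln level was not tested.

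Npy, the neuropeptide of neurogliaform and of some Sst cells, ran from 4.93 to 25.2 CPM, and both extremes came from C57BL/6J mice with NTG. The C57BL/6J mice had Npy at 7.10, 12.5 and 6.92 CPM with crRNA-13 and at 7.57, 10.2, 21.9 and 14.3 CPM with EGFP-KASH only. It differed by -0.55 ± 0.20 on the log2 scale between them (edgeR, adjusted p = 0.296), and without the factors the unadjusted p was over 0.05. Leaving out 1 library moved it between -0.28, without replicate 4 of the EGFP-KASH only mice (adjusted p = 0.734), and -0.82, without replicate 2 of the crRNA-13 mice (adjusted p = 0.141). The standard error of Npy between the genotypes with NTG was 42% of that without the factors. That was the lowest such share of the set, in which Adarb2 (105%) and Reln (106%) had slightly larger errors with the factors than without them. In C9-BACexp mice Npy averaged 9.58 ± 4.31 CPM with crRNA-13, 10.1 ± 3.12 CPM with NTG and 12.8 ± 8.20 CPM with EGFP-KASH only (SD, n = 6, 6 and 3).

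The genotype comparison asks what the transgene changes, and of the 10 genes 0 were called with NTG, where 6.61% of all genes tested were. With crRNA-13 and with EGFP-KASH only 0 were called as well, against 1.1% and 2.86% of all genes tested. At an unadjusted p under 0.05 there were 2 of 10 members with NTG, where 26% of all genes were, and 0 with crRNA-13 (12.5% of all genes) or EGFP-KASH only (18.9%). Without the factors Reln alone was at that level, with NTG, where 14.1% of all genes were, against 5.17% with crRNA-13 and 7.94% with EGFP-KASH only. With NTG 7 of 10 fold changes were above 0 with a median of 0.15, where the median of all genes was 0.02. With crRNA-13 6 of 10 were above 0 (median 0.04, all genes -0.0042), and with EGFP-KASH only 3 of 10 were (median -0.15, all genes -0.03). Except for Adarb2 with EGFP-KASH only, the groups overlapped for all 10 genes in these 3 comparisons, where 2.76%, 1.74% and 6.13% of all genes had groups apart. Other cell types moved with genotype in the NTG libraries. In C9-BACexp mice 9 of 10 oligodendrocyte markers and 4 of 14 striatal markers rose, 4 of 10 astrocyte markers fell and 0 of 10 microglial markers were called (edgeR with the factors). Without the factors 0 of these markers were called. The summed levels were 1020 to 2260 CPM in C9-BACexp against 328 to 1760 CPM in C57BL/6J mice for oligodendrocytes, 526 to 696 against 711 to 813 CPM for astrocytes and 1185 to 8676 against 699 to 1724 CPM for the striatal list. The striatal sum mostly follows Pde10a, and the mean log2 CPM of that list was 2.01 to 5.15 in C9-BACexp against 1.89 to 2.21 in C57BL/6J mice. The part of the glial markers in the members' values was not tested, and fits that take in the striatal level are given with the correlations.

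**Figure D2:**
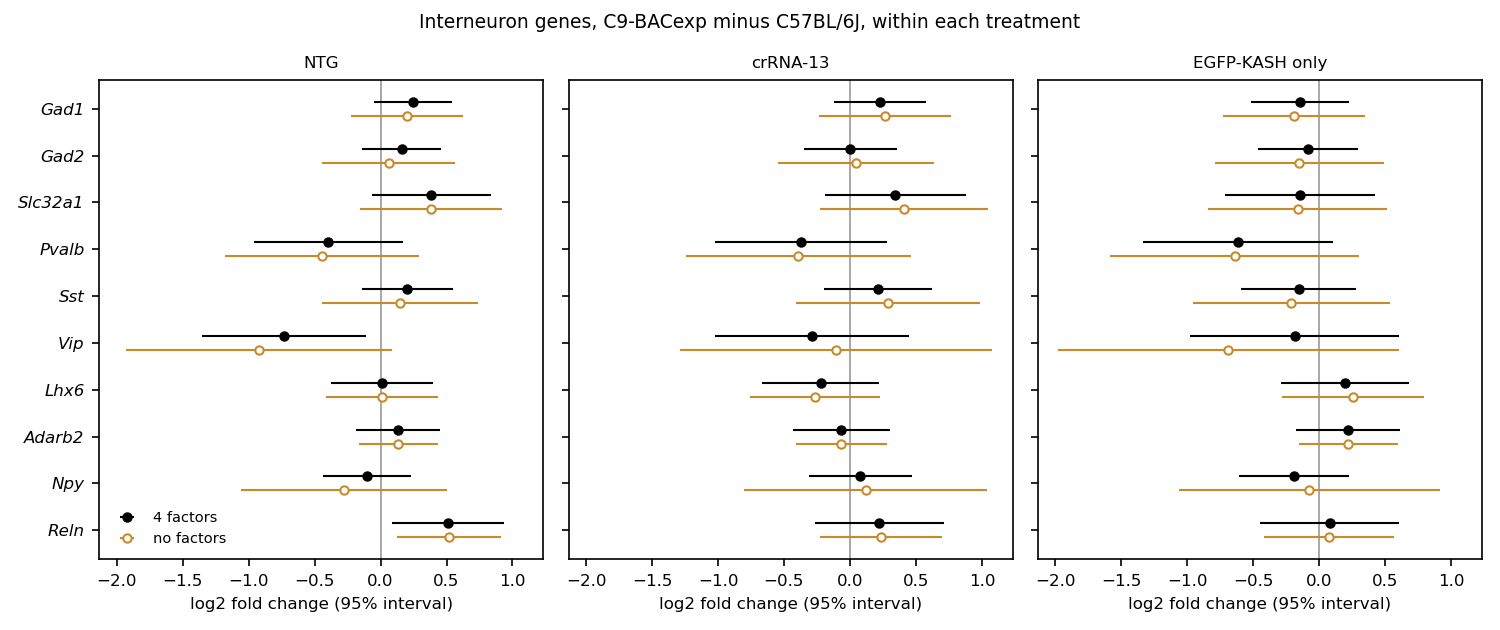
Log2 fold change of C9-BACexp over C57BL/6J mice (x axis) for the 10 genes (y axis) within each treatment, with 95% intervals, in edgeR with 4 factors (filled) and without factors (open). With the factors, 2 intervals left out 0, for Vip (-0.73) and Reln (0.51) with NTG, and both had an adjusted p over 0.05.

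The comparison of crRNA-13 with NTG asks what targeting the human transcript changes. In C9-BACexp mice 0 of 10 members were called, as were 0.487% of all genes tested. At an unadjusted p under 0.05 there were 4 members (Adarb2, Gad1, Gad2 and Reln), where 10.5% of all genes were, and all 4 had fold changes below 0. Without the factors Adarb2 and Reln were at that level, as were 5.28% of all genes. The groups overlapped for all 10 members, and 0.28% of all genes had groups apart. The fold changes of 9 of 10 members were below 0, with a median of -0.20 beside -0.02 for all genes, and Pvalb was the one above it, at 0.11 ± 0.26. In C57BL/6J mice, which carry no human C9ORF72, 8 of 10 were below 0 with a median of -0.18 (all genes 0.0041), 0 were called and 0% of all genes were. At an unadjusted p under 0.05 there were 0 of 10 members in edgeR with the factors and 0 without them, beside 11.1% and 4.81% of all genes, and DESeq2 and limma-trend called 0. The groups overlapped for all 10 members there too, and 2.78% of all genes had groups apart. Whether the genotype difference itself changed with the guide was tested as an interaction, crRNA-13 minus NTG, which called 0 members and 0.00459% of all genes, with 0 members at an unadjusted p under 0.05 with the factors (10.6% of all genes) or without them (4.24%). For Adarb2 that difference was -0.20 ± 0.23, with a 95% interval of -0.68 to 0.29 (edgeR, adjusted p = 0.817).

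The comparisons with EGFP-KASH only set mice given the nuclease and a guide beside mice given the marker alone. The nuclease vector came in addition to the EGFP-KASH vector, and age at injection was not given for EGFP-KASH only mice. A difference in vector dose or age cannot be told apart from the nuclease. In C9-BACexp mice 0 of 10 members were called with crRNA-13 and 0 with NTG, against 0.905% and 0.0322% of all genes tested. In C57BL/6J mice 0 were called with crRNA-13 and 0 with NTG, against 0.423% and 0% of all genes. The members at an unadjusted p under 0.05 were Adarb2 with crRNA-13 and Gad1 with NTG in C9-BACexp mice, and Npy and Sst with crRNA-13 and Sst with NTG in C57BL/6J mice. Of these, Gad1 had a fold change above 0 and the others below it. All genes at that level were 12% with crRNA-13 and 11.3% with NTG in C9-BACexp mice, and 11.3% with crRNA-13 and 7.82% with NTG in C57BL/6J mice. Without the factors Adarb2 with crRNA-13 in C9-BACexp mice was the one member left, beside 5.32% of all genes, and the other comparisons had 4.55% (NTG, C9-BACexp), 4.77% (crRNA-13, C57BL/6J) and 3.8% (NTG, C57BL/6J). The groups overlapped for all 10 members, where 1.58% and 2.14% of all genes had groups apart with crRNA-13 and NTG in C9-BACexp mice, and 4.91% and 0.841% in C57BL/6J mice. These comparisons share the EGFP-KASH only libraries of each genotype.

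**Figure D3:**
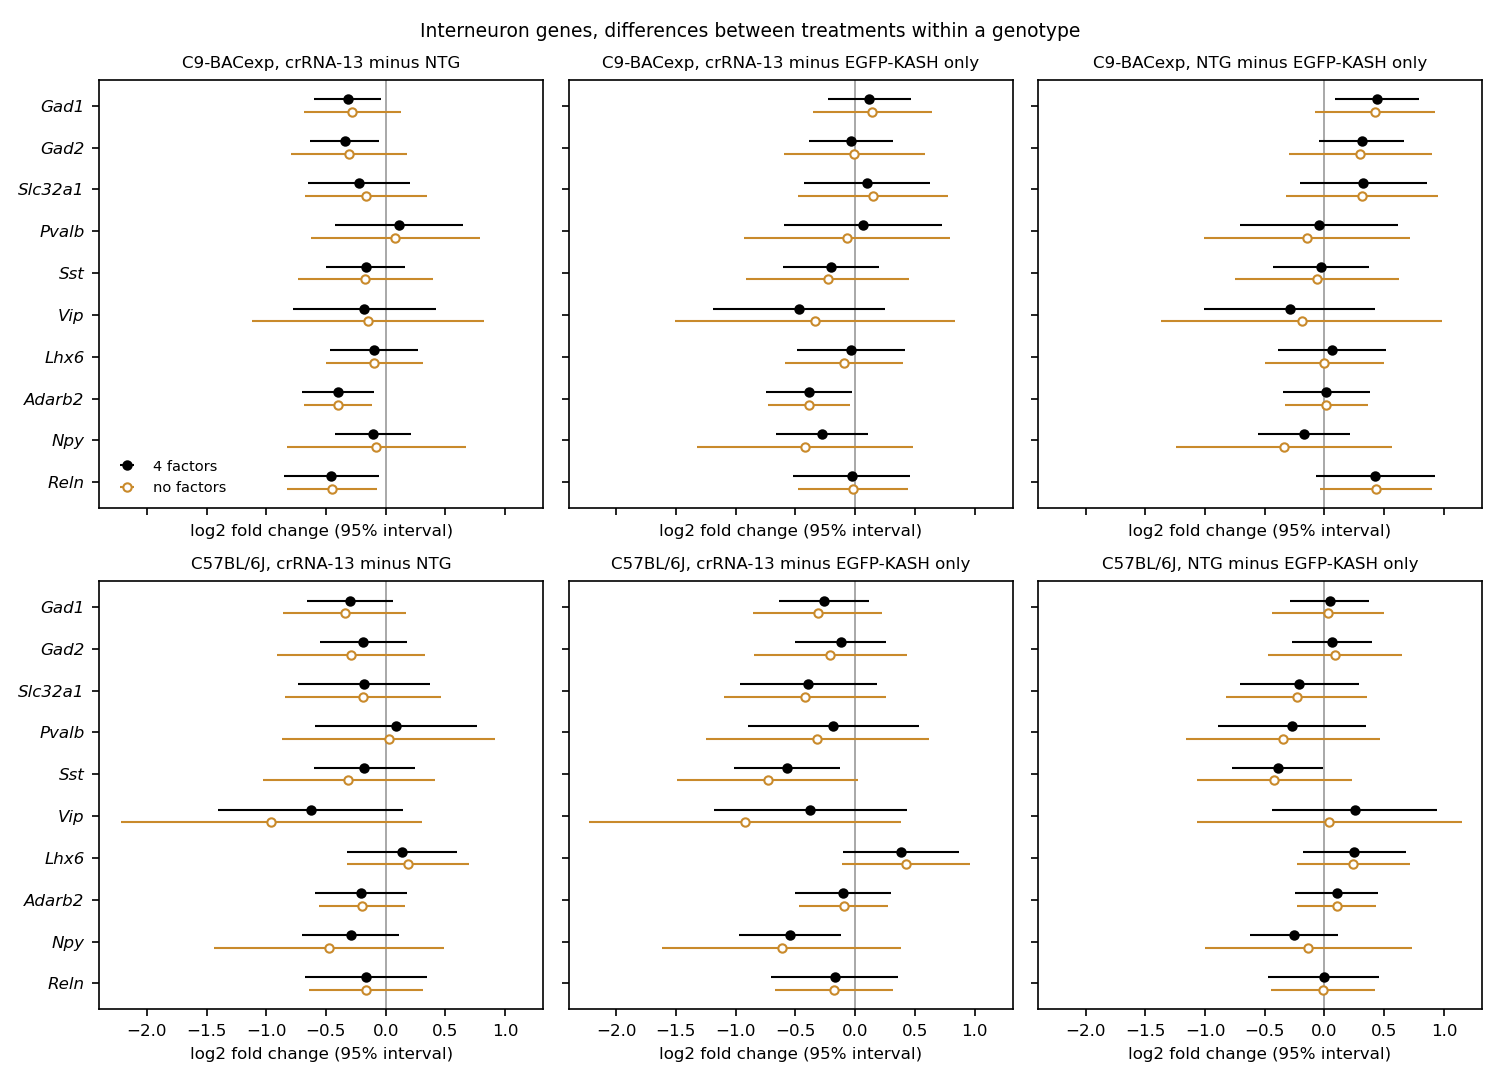
Log2 fold changes between treatments (x axis) for the 10 genes (y axis) in C9-BACexp mice (upper row) and C57BL/6J mice (lower row), with 95% intervals, in edgeR with 4 factors (filled) and without factors (open). In the upper left panel, crRNA-13 over NTG in C9-BACexp mice, 9 of 10 filled points lie below 0, from -0.45 for Reln to -0.10 for Lhx6, and Pvalb lies at 0.11.

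Other genes of the same lineages and pathway were read from lists of 19 MGE, 19 CGE and 12 general GABAergic genes, of which 18, 18 and 12 were tested. With NTG, 1 of 18 MGE genes and 2 of 18 CGE genes were called between C9-BACexp and C57BL/6J mice, where 6.61% of all genes tested were. The lists went both ways, with 9 of 18 MGE genes (median -0.0053 on the log2 scale) and 7 of 18 CGE genes (median -0.16) above 0, beside a median of 0.02 for all genes. Kcnc2, a Kv3 potassium channel subunit of fast-spiking cells, was lower, at 320 ± 40.6 CPM in C9-BACexp against 447 ± 51.9 CPM in C57BL/6J mice (log2 fold change -0.48 ± 0.09, edgeR, adjusted p = 0.00488). Lamp5, a marker of neurogliaform cells, was lower, at 14.2 ± 3.25 CPM in C9-BACexp against 26.0 ± 8.55 CPM in C57BL/6J mice (-0.87 ± 0.18, edgeR, adjusted p = 0.00866). Prox1, a transcription factor of CGE-derived cells, was higher, at 29.1 ± 5.37 CPM in C9-BACexp against 17.0 ± 8.10 CPM in C57BL/6J mice (0.86 ± 0.18, edgeR, adjusted p = 0.0122). With EGFP-KASH only, Etv1, a transcription factor of MGE-derived and layer 5 cells, was lower by 0.61 and Cck, a peptide of basket cells that excitatory neurons also express, by 0.85 on the log2 scale in C9-BACexp mice (edgeR, adjusted p = 0.0179 and 0.0192). In the other 8 comparisons 0 genes of the MGE and CGE lists were called. Of the 12 general genes 0 were called in all 10 comparisons. None of the 5 calls held in edgeR without the factors, where their adjusted p was 0.290 to 0.667. Of 13 excitatory cortical genes, Rorb was lower (-1.14 ± 0.20) and Foxp2 higher (0.60 ± 0.13) in C9-BACexp mice with NTG. Their adjusted p in edgeR was 0.00328 and 0.0159 with the factors, and 0.0944 and 0.372 without them. Which cell types the calls of the lineage lists come from was not tested.

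All 12 general GABAergic genes had a fold change below 0 with crRNA-13 against NTG in C9-BACexp mice, and 0 of the 12 passed the test. Their median was -0.38 on the log2 scale, beside -0.02 for all genes, and 6 of 12 had an unadjusted p under 0.05, as did 10.5% of all genes. The same list had 9 of 12 above 0 (median 0.28) between NTG and EGFP-KASH only in C9-BACexp mice, a comparison that shares the NTG libraries. Between crRNA-13 and EGFP-KASH only 3 of 12 were above 0 there (median -0.15), and between crRNA-13 and NTG in C57BL/6J mice 5 of 12 were (median -0.07). The ones with the smallest p were Dlx6os1, a long non-coding RNA at the Dlx5 and Dlx6 locus, at 34.6 ± 11.7 with crRNA-13 against 44.9 ± 8.44 CPM with NTG (edgeR, adjusted p = 0.116), and Sp9, a transcription factor of ganglionic eminence neurons, at 1.24 ± 0.769 against 2.08 ± 0.637 CPM (edgeR, adjusted p = 0.162). Of the 14 striatal genes 2 were above 0 in the same comparison, with a median of -0.32 and 0 called. The summed level of the striatal list had a median of 2066 CPM with crRNA-13 (1528 to 3515) and 2089 CPM with NTG (1185 to 8676). Pde10a alone averaged 1849 CPM with crRNA-13 and 2467 CPM with NTG, so the sum mostly follows that gene. The mean log2 CPM of the list was 2.04 to 3.89 with crRNA-13 and 2.01 to 5.15 with NTG. The part of striatal cells in these values was not tested.

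**Figure D4:**
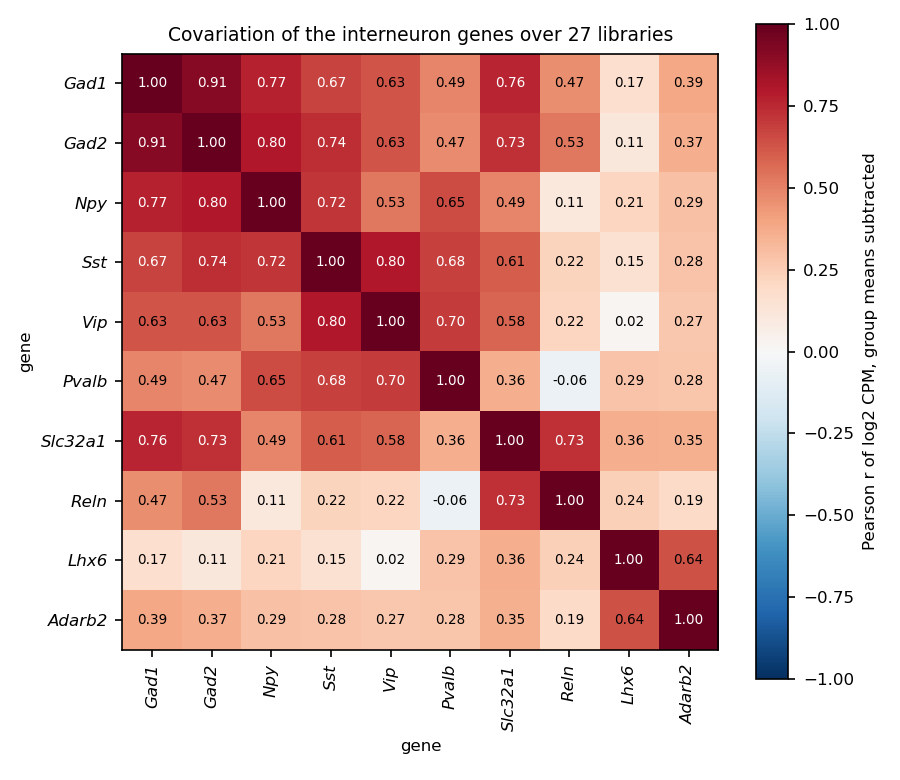
Pearson correlation between each pair of the 10 genes over 27 libraries, from log2(CPM + 0.5) after the mean of each group was subtracted. Gad1 and Gad2 had the highest r, 0.91, and Lhx6 and Adarb2 had r of 0.02 to 0.39 with Gad1, Gad2, Npy, Sst, Vip and Pvalb.

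Within groups the members did not vary independently. Of their 45 pairs, 44 had an r above 0 over the 27 libraries, and 22 had an adjusted p under 0.05 by a permutation test within groups (100000 resamples, two-sided, adjusted over the pairs) for both Pearson's r and Spearman's rho. The share of pairs of other genes at these levels was not computed, so the counts are not read as particular to the members. Gad1 and Gad2 had an r of 0.91 and a rho of 0.92 (permutation p = 1e-05 for both, the smallest the resamples can give, adjusted p = 0.00045), and r was 0.88 without the 2 libraries farthest from the median of Gad1. Sst and Vip, of different lineages, had an r of 0.80 and a rho of 0.77 (permutation p = 0.0001 and 0.00019, adjusted p = 0.00075 and 0.00122), and r was 0.77 without the 2 farthest. Slc32a1 and Reln had an r of 0.73 and a rho of 0.79 (permutation p = 0.0001 and 0.00011, adjusted p = 0.00075 and 0.00099), and r stayed at 0.72. Lhx6 and Adarb2, which mark opposite lineages, had an r of 0.64 and a rho of 0.51 (permutation p = 0.00648 and 0.0220, adjusted p = 0.0172 and 0.0476), and r was 0.47 without the 2 farthest. The pair with the lowest r was Pvalb and Reln, at -0.06. The pair of Pvalb and Sst, both of the MGE lineage, had an r of 0.68 and a rho of 0.67. The other pairs within 1 lineage were lower, Sst and Lhx6 at 0.15, Pvalb and Lhx6 at 0.29 and Vip and Adarb2 at 0.27. All of these lay below the pair of Sst and Vip, a description whose difference was not tested.

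The genes whose levels followed each member most closely within groups were sought among 13238 genes that averaged 1 CPM or more. Npy was followed by Rpl13, a ribosomal protein gene (r = 0.90, rho = 0.84), and Cox6c, a subunit of cytochrome c oxidase (r = 0.89). Sst was followed by Ptgds, prostaglandin D2 synthase (r = 0.93, rho = 0.92), and Mtmr2 (r = 0.91). Vip was followed by Scg5, a secretory granule protein (r = 0.88), and Cnbp (r = 0.88). Pvalb was followed by Syt2, the fast calcium sensor of synaptic release used by fast-spiking cells (r = 0.83, rho = 0.82), and Nat8l, the enzyme that makes N-acetylaspartate (r = 0.82). Adarb2 was followed by Dlx1, a homeobox gene of interneurons (r = 0.83, rho = 0.76), and Ptprm (r = 0.74). Lhx6 was followed by Micalcl (r = 0.76) and Kcnc1, a Kv3 potassium channel subunit (r = 0.75). Gad2 was followed by Dock11 (r = 0.93) and Prkcq (r = 0.88), Gad1 by Itch (r = 0.86) and Atp1b1 (r = 0.84), Slc32a1 by Nt5e (r = 0.87) and Tbl1x (r = 0.79), and Reln by Srgap1 (r = 0.82) and Kcnab1 (r = 0.80). All are taken over the same 27 libraries, and they are the highest of many, so they describe these libraries only.

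Striatal projection neurons also use Gad1, Gad2 and Slc32a1, and lie below the motor cortex, so the members were set beside the mean log2 CPM of the striatal list. Over the 27 libraries Reln rose with it by r and rho, and Slc32a1 by r alone. Here libraries were permuted regardless of group and group means were not subtracted. The p values therefore do not separate differences between groups, in which the striatal level also differed, from variation within them. The share of all genes with as high an r was not computed. Reln had an r of 0.70 (permutation p = 0.00013, adjusted over the 10 genes 0.0013) and a rho of 0.55 (permutation p = 0.00336, adjusted p = 0.0336), and an r of 0.52 (adjusted p = 0.0422) without replicate 6 of the C9-BACexp NTG mice and replicate 3 of the C9-BACexp EGFP-KASH only mice. Within genotypes r was 0.75 in C9-BACexp mice (n = 15) and 0.21 in C57BL/6J mice (n = 12). Slc32a1 had an r of 0.61 (permutation p = 0.00077, adjusted p = 0.00385) and a rho of 0.40 (permutation p = 0.0408, adjusted p = 0.148), and an r of 0.57 without those libraries (adjusted p = 0.0329). Within genotypes it was 0.67 in C9-BACexp and 0.48 in C57BL/6J mice. Gad1 (r = 0.41, permutation p = 0.0319, adjusted p = 0.106) and Gad2 (r = 0.36, permutation p = 0.0649, adjusted p = 0.162) did not pass, and Pvalb, Sst, Vip, Lhx6, Adarb2 and Npy had r of -0.25 to 0.17. With the striatal level as a covariate in edgeR, the Reln difference between the genotypes with NTG was 0.16 (adjusted p = 0.672) beside 0.51, and that of Slc32a1 was 0.01 beside 0.38. The striatal level itself differed between these groups, at 2.01 to 5.15 in C9-BACexp and 1.89 to 2.21 in C57BL/6J mice. The covariate can therefore take out genotype differences too, and the fit cannot tell the 2 apart. In the same fit the difference of Vip was -1.05 (adjusted p = 0.106). Those of crRNA-13 against NTG in C9-BACexp mice moved less, to -0.40 for Adarb2, -0.31 for Gad1, -0.32 for Gad2 and -0.38 for Reln, with adjusted p of 0.128 to 0.203 in edgeR. Without the 8 libraries whose striatal mean was over 3, a choice made after seeing the data, they were -0.33, -0.47, -0.38 and -0.33 (edgeR, adjusted p = 0.166 to 0.503).

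**Figure D5:**
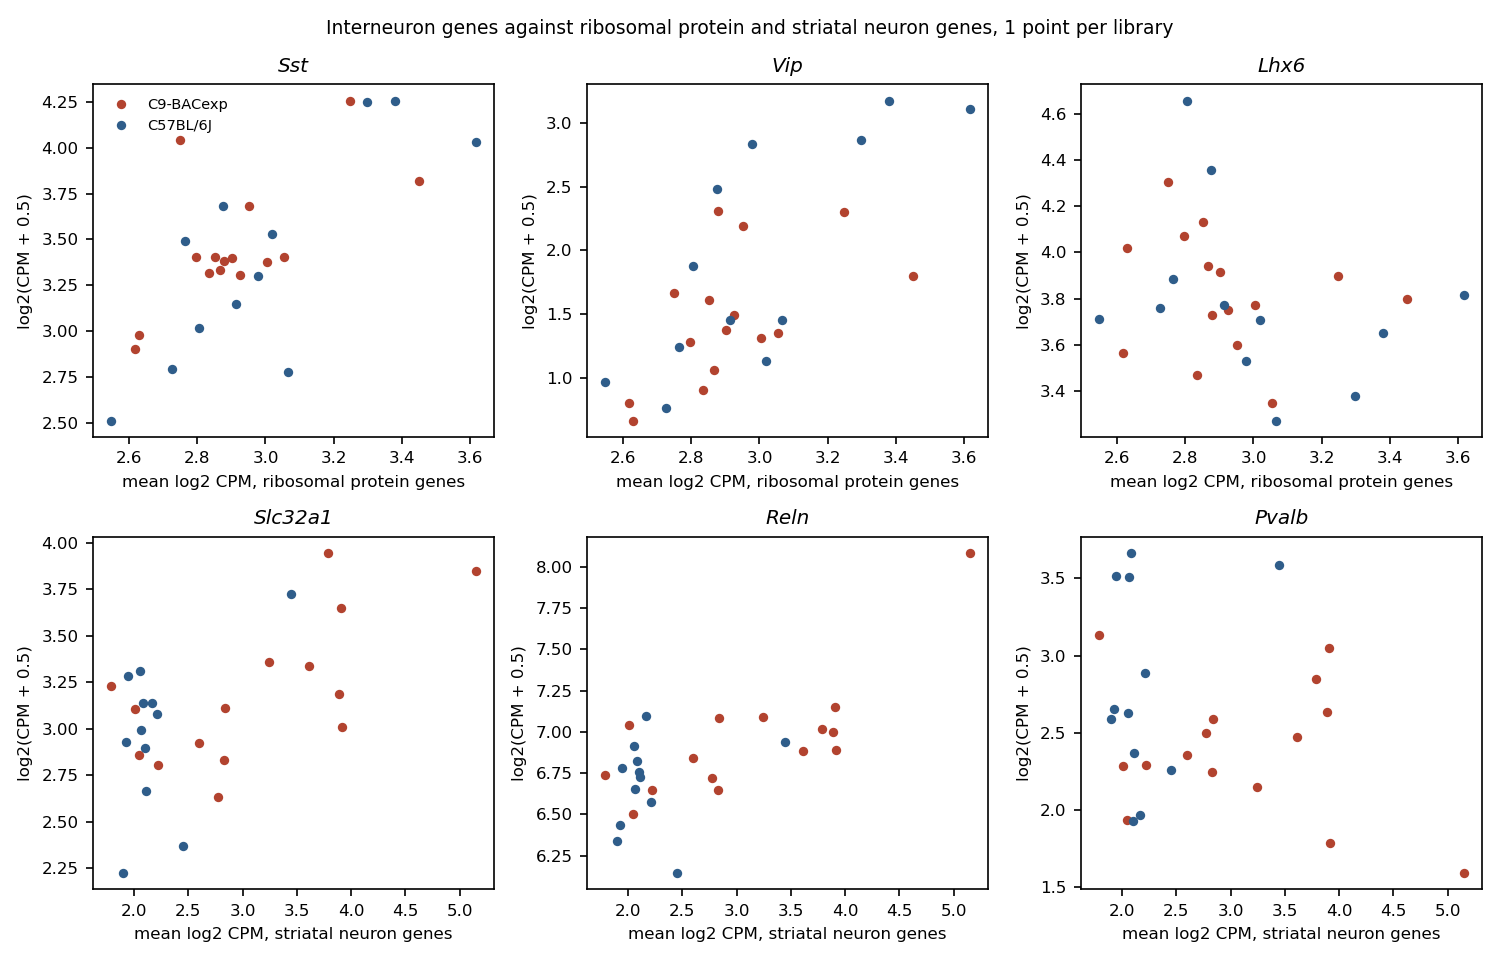
Levels of 6 interneuron genes (y axis, log2(CPM + 0.5)) against the mean log2 CPM of 76 ribosomal protein genes (upper row, x axis) or of the striatal list (lower row, x axis), 1 point per library, C9-BACexp red and C57BL/6J blue. Sst and Vip rise to the right in the upper row (r = 0.71 for both) and Lhx6 does not (r = -0.27), and in the lower row Slc32a1 and Reln rise (r = 0.61 and 0.70) and Pvalb does not (r = -0.25).

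Because Npy was followed by a ribosomal protein gene, the members were also set beside the mean of 76 ribosomal protein genes. The list was added after seeing the data and was prompted by a member that varies with several others, so its correlations are a description, with no test. Pearson's r over the 27 libraries was 0.71 for Sst and Vip, 0.70 for Gad2, 0.65 for Gad1, 0.53 for Pvalb and 0.49 for Slc32a1, beside 0.69 for Npy itself. These 7 members had an r of at least 0.49, as did 13.6% of the 21692 genes tested outside the list. An r at least that of Gad1 was found for 5 members and for 6.02% of those genes. Both cut-offs are the r of a member, Slc32a1 and Gad1, so the choice fixed the member counts. The counts are therefore not read as an excess over the shares of all genes. Spearman's rho of the 7 was 0.40 to 0.65, and without replicate 5 of the C57BL/6J NTG mice and replicate 1 of the C9-BACexp crRNA-13 mice r was 0.45 to 0.71. Within genotypes r was 0.32 to 0.70 in C9-BACexp mice and 0.45 to 0.81 in C57BL/6J mice. Lhx6 (r = -0.27), Adarb2 (-0.02) and Reln (0.10) lay lower. Summed over the ribosomal genes, C9-BACexp libraries held 510 to 924 CPM with crRNA-13 and 577 to 768 CPM with NTG, and C57BL/6J libraries with NTG held 484 to 1011 CPM, so the groups overlapped. Its correlation with the striatal level was 0.22.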

How the data were processed

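The authors quantified nuclear RNA-seq reads with Salmon 1.10.0 on spliced and unspliced transcripts of NCBI Annotation Release 109 and the GRCm39 build, and summed them to genes with tximport in R 4.3.1. The deposited values are expected counts scaled by transcript length, not normalized between libraries. With R 4.3.3 and edgeR 4.0.16 they were rounded, TMM-scaled and filtered by filterByExpr (minimum count 10, minimum total 15). Each of the 27 libraries comes from 1 mouse, and groups follow the sample labels. Tests were edgeR's robust quasi-likelihood F tests from 1 model of 6 groups and 4 factors estimated from residuals (the RUVr method, an assumption). A call needs a fold over 1.2 and an adjusted p under 0.05 (Benjamini-Hochberg over all genes). The 3 genotype comparisons and those of crRNA-13 in C9-BACexp mice were adjusted together. In C57BL/6J mice, crRNA-13 and NTG were compared at a fold of 1.25 and an adjusted p of 0.01. Other comparisons were adjusted singly. A standard error was taken as the size of the log2 change divided by the root of F. DESeq2 1.42.0, limma 3.58.1, other scalings, no filter, a replicate block, a striatal covariate and leaving out libraries were tried. Correlations use log2(CPM + 0.5). All 10 members are named in each comparison, and other list genes are the called ones with the smallest p (up to 3) or, with none called, up to 2 with the smallest p, by value only. The genes most like each member are the 2 with the highest Pearson's r outside the members, predicted genes left out. Scripts were tested on simulated data. The members and lists were chosen with earlier results of these data known. The depths above limit counting error only.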

Additional observations from a re-analysis of the deposited data

Results flagged for a closer look

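Of 40 sets of 4 to 6 libraries (10 genes in 4 groups), 6 held a library with a large gap to its nearest neighbour. The gap was judged against the range of the group by the cut-offs of Dixon's test. Those cut-offs flag about 1 in 20 sets when values are independent and normally spread. Here CPM were taken on a linear scale and the genes vary together, so the 6 are not read as an excess. In C9-BACexp mice with NTG, replicate 1 was highest in Sst (18.62 CPM, nearest 10.1) and in Vip (4.434 CPM, nearest 2.551), and replicate 6 was highest in Reln (271.2 CPM, nearest 141.5). In C9-BACexp mice with crRNA-13, replicate 1 was highest in Npy (17.88 CPM, nearest 9.308) and replicate 3 in Adarb2 (492.3 CPM, nearest 369). In C57BL/6J mice with NTG, replicate 4 was highest in Lhx6 (19.96 CPM, nearest 13.6). All 6 were the highest of their group. The effect of leaving out 1 library on Reln and Adarb2 is given with those genes above. Replicate 6 of the C9-BACexp NTG mice also had the highest summed striatal level of all libraries (8676 CPM), whose part in its Reln level was not tested.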

How the results depend on the processing

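The count of interneuron genes called stayed at 0 in all 10 comparisons in 11 alternatives: edgeR without factors, DESeq2 with and without them, limma-trend, DESeq2 size factors, library size alone, no filter, p adjusted within each comparison, the striatal covariate, the replicate block, and leaving out the 8 libraries high in striatal genes (added after seeing the data). Leaving out 1 library in turn gave 0 to 1 called in C57BL/6J mice between crRNA-13 and EGFP-KASH only (Sst, -0.89, edgeR, adjusted p = 0.0407, without EGFP-KASH only replicate 2) and 0 elsewhere. Of 1100 fold changes in these 11 alternatives 54 had the opposite sign, as did 136 of 1010 without 1 library, and none of these was called. The alternative with p adjusted within each comparison keeps the main fold changes, so its share of the 1100 could not change sign. With the replicate block 0 members were called. Same-numbered libraries of different groups had a median r of -0.0031 (48 pairs, -0.16 to 0.29, 10 over 0.1). Differently numbered ones had a median r of 0.00014 (251 pairs, -0.38 to 0.42, 38 over 0.1). With both medians near 0, the numbers were not taken as pairs. Without the 2 libraries farthest from the median, the correlation with the striatal list became 0.0594 for Pvalb, 0.106 for Vip and 0.0159 for Npy, none with an adjusted p under 0.05. Counts over all genes depend on the factors: with NTG edgeR called 1439 genes between genotypes with them and 6 without, and DESeq2 2256 and 282. The groups of 3 and the low counts of Vip limit what could be seen. The labels name no batch, so none was tested.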
